A study of Mus musculus with 5 samples.

Results

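The cells described here are islet alpha cells in which glucagon took an unusually small part of the messenger RNA. They were selected on their own hormone counts: barcodes needed 1000 UMIs or more, 500 or more genes with a UMI, and mitochondrial transcripts of no more than 15%. A kept cell was a member if Gcg, the glucagon gene, gave at least 10% and under 30% of its UMIs, with Ins1 and Ins2 together under 10%, Sst under 1% and Ppy under 2%. This rule found 597 members among 22758 kept cell barcodes (2.62%), with 87, 145 and 102 in chow mice 1, 2 and 3 and 139 and 124 in HC mice 1 and 2. They were read against 4109 comparison cells that met the same limits on insulin, somatostatin and pancreatic polypeptide but gave at least 30% of their UMIs to Gcg, 660, 708 and 675 in the chow mice and 1150 and 916 in the HC mice. A UMI is a random tag that marks 1 captured RNA molecule, so UMI counts are counts of molecules.

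The islets came from 5 mice whose genotype is given as NOD.SCID (NOD.Cg-Prkdcscid/J), a diabetes-prone background whose scid mutation of Prkdc leaves the animals without mature T and B cells. Chow was fed to 3 mice, aged 8, 10 and 10 weeks, and a diet labelled 20% HC to 2 mice, aged 7 and 9 weeks. Every mouse carried the scid mutation, so no group with lymphocytes was present. Handpicked islets of each mouse were dissociated with trypsin and made into 1 droplet library of 3 prime ends, and the 5 mice are the replicates throughout. The deposited libraries held 28722244 to 39624978 UMIs in 4452 to 6087 barcodes. HC mouse 2 was titled as chow-fed while its diet label read 20% HC. It was kept as HC, because the series counts 3 chow and 2 HC mice. Library names began with FUN for chow mouse 1 and HC mouse 1 and with SKY for the others, and the labels do not say what this prefix marks.

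Alpha cells release glucagon, the hormone that raises blood glucose between meals. They make it as proglucagon, which enters the endoplasmic reticulum through the translocation channel, is packed with granins into dense-core granules and is cut by the convertase Pcsk2. Their identity is tied to the transcription factors Irx1 and Irx2, among others, and mouse alpha cells also hold abundant Ttr, which encodes the carrier transthyretin.

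The alpha cell label held in the members by genes that the rule did not use. Irx1 was detected in 33.7% of members, 39.6% of comparison cells and 1.01% of the 12360 barcodes with at least 30% insulin UMIs. The insulin-rich barcodes had no limit on Gcg, which reached 31.4% in chow mouse 1. The source of their Irx1 was not tested. After each cell was thinned to 1000 UMIs of non-hormone genes, which left out 26 members and 46 comparison cells, the Irx1 shares were 18.4%, 20.6% and 0.286%. In the same order Irx2 gave 16.5%, 16.7% and 0.343% of thinned cells. Ttr was less selective, with 98.1%, 99.8% and 71.6%. At least 3 alpha markers other than Gcg were seen in 585 of 597 members (98.0%) and in 4078 of 4109 comparison cells (99.2%) before thinning. The rule set limits on the hormones of beta, delta and pancreatic polypeptide cells, not on their other markers. The 9 beta markers other than insulin summed to 1361, 2208 and 1013 UMIs per 1000000 non-hormone UMIs in members of chow mice 1, 2 and 3 and to 1452 and 1387 in those of HC mice 1 and 2, against 1112, 1018, 806, 792 and 782 in comparison cells. Most of each of these sums was the peptide gene Iapp. In the same mouse order Iapp stood at 1162, 2038, 809, 1308 and 1245 in members. Comparison cells had 925, 852, 644, 657 and 642. Insulin transcripts were still seen in each of the 597 members. The sum of Ins1 and Ins2 was under 2% of UMIs in 570 of them.

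The members' Gcg share ran from 10.1% to just under 30% with a median of 25.7%, and 341 of the 597 (57.1%) lay between 25% and 30%. Only 41 lay under 15%, with 70 between 15% and 20% and 145 between 20% and 25%. Just inside the upper bound, 173 members with 28% to 30% Gcg had a median of 771 Gcg UMIs and 1860 non-hormone UMIs, and just outside it 190 cells with 30% to 32% had 853 and 1876. At the lower bound there were 13 members with 10% to 12% and 9 cells with 8% to 10%. These values describe the rule and carry no test, and whether the members form a group of their own was not tested.

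Members held fewer glucagon molecules and, to a smaller degree, fewer other molecules than the comparison cells. The median number of Gcg UMIs per member was 720, 616 and 554 in chow mice 1, 2 and 3 and 605 and 672 in HC mice 1 and 2. In comparison cells the medians were 2285, 1782, 1721, 1620 and 1686 in the same order. Members therefore held 0.315 to 0.399 of the comparison level in every mouse, a description because Gcg chose both classes. UMIs of all genes other than Gcg, Ins1, Ins2, Sst and Ppy had medians of 2047, 1775, 1636, 1814 and 1942 in members and 2570, 2112, 1945, 1910 and 2167 in comparison cells, ratios of 0.797 to 0.949. Total UMIs had medians of 2227 to 2696 against 3642 to 5044. Fewer transcripts per cell and less complete capture of a cell cannot be told apart in these counts.

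**Figure D1:**
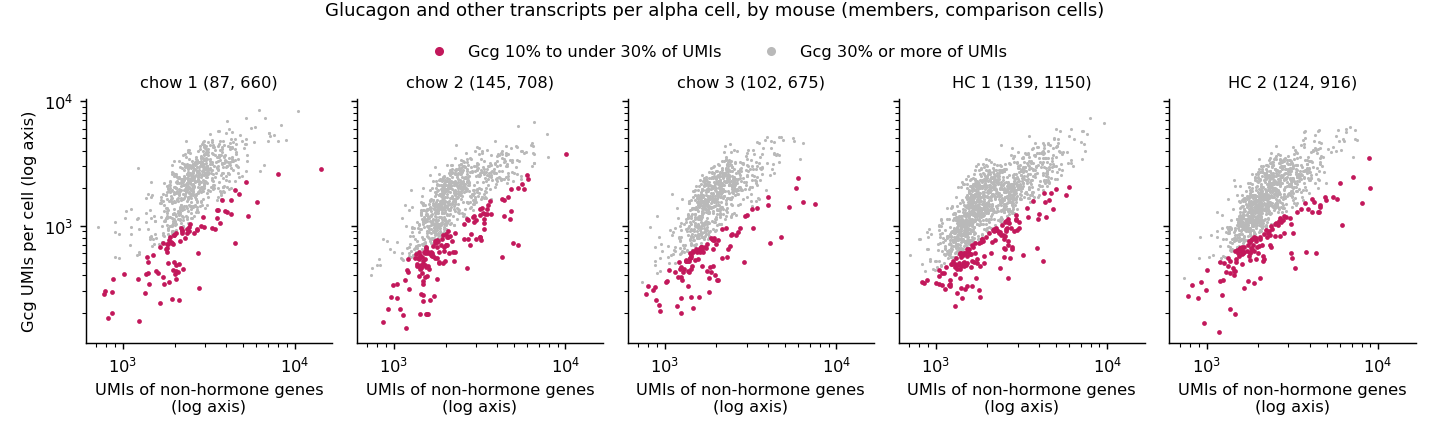
Gcg UMIs of each cell (vertical, log axis) against its UMIs of non-hormone genes (horizontal, log axis), one panel per mouse; red points are the 597 members and grey points the 4109 comparison cells, with both counts above each panel. Red points lie below the grey ones, and the straight line where they meet is the 30% limit.

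A barcode that also holds RNA of another cell has a lower Gcg share by arithmetic, so transcripts of other islet cells were counted before genes were compared. At least 3 markers of an endothelial, stromal or macrophage list were seen in 52 of 597 members (8.71%) and in 59 of 4109 comparison cells (1.44%). By mouse the member shares were 2.30%, 5.52% and 10.8% in chow mice 1, 2 and 3 and 3.60% and 21.0% in HC mice 1 and 2. HC mouse 2 stood apart, with macrophage markers in 12.9% of its members and endothelial markers in 8.06%. The macrophage list of 9 genes summed to 135, 528, 2802, 970 and 7408 UMIs per 1000000 non-hormone UMIs (CPM) in members, in that mouse order, and to 83.9, 193, 136, 202 and 298 in comparison cells. The range over mice was 70.3 to 687 in members and 15.2 to 67.1 in comparison cells for the endothelial list, and 149 to 832 against 46.5 to 112 for the stromal list. Acinar markers, of cells that make digestive enzymes, summed to 7727 in members of chow mouse 1 and 2480 in those of chow mouse 3, and to 113 to 338 in the other 3 mice. Any of 9 lists of another cell type was carried by 26.5% of members and 21.9% of comparison cells, and at the equal depth of 1000 non-hormone UMIs by 13.0% and 5.51%. Doublets were not removed, so results are also given without the 52 members and 59 comparison cells named first, here called carriers.

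Counts were summed per mouse and class, without the 5 hormone genes, and members were compared with comparison cells of the same mouse by edgeR's quasi-likelihood test with the mouse as a block. Adjusted p below is that test's p after Benjamini-Hochberg adjustment over all genes tested, with a threshold of 0.05, and levels are in CPM as defined above. Of 8304 genes tested, 134 were higher in members (1.61%) and 190 were lower (2.29%), and the median log2 fold change of all tested genes was 0.01. Without the carriers 90 were higher and 193 lower, and 220 of the 304 calls that could still be tested remained. Without HC mouse 2 these counts were 127 and 175, with 232 of 323 calls remaining. With cells thinned to 1000 non-hormone UMIs, 42 were higher and 89 lower of 5587 tested. Of the 263 original calls still tested 115 remained, and 262 kept their sign. Gene lists are described by their counts and medians beside these shares, with no test of the list.

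Genes of the secretory granule were lower in members. Of the 11 genes for granins and prohormone processing 10 were tested, and 8 were lower and none higher, with a median log2 fold change of -0.43. Scg2, the granin secretogranin II (chromosome 1, 79434669 to 79440120, minus strand, GRCm38), stood at 527, 677 and 512 in members of chow mice 1, 2 and 3 and at 652 and 645 in those of HC mice 1 and 2. Its levels in comparison cells were 1078, 1043, 1066, 1114 and 1064, so the classes did not overlap. The log2 fold change of Scg2 was -0.88 ± 0.065 (SE, adjusted p = 8.7e-21). Scg5, which encodes the chaperone 7B2 of Pcsk2, averaged 4300 ± 538 in members and 5536 ± 449 in comparison cells (SD, n = 5), log2 -0.43 ± 0.043 (adjusted p = 7.05e-13). HC mouse 2 had the lowest Scg5 in members, 3351, against 4438 to 4673 in the other 4 mice.

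The enzymes that cut and trim prohormones moved the same way. Cpe, which removes basic residues from the cut peptides, was at 1541, 1510, 1510, 1653 and 1374 in members and 2121, 1926, 2099, 1852 and 1906 in comparison cells, with no overlap (log2 -0.44 ± 0.052, adjusted p = 1.43e-10). Pcsk2 fell by 0.27 on the log2 scale (adjusted p = 6.83e-07) and Pam, which amidates peptides, by 0.39 (1.76e-06). The granins Scg3 and Chga had log2 fold changes of -0.51 (2.99e-10) and -0.46 (0.00257). Vgf, a granin-related peptide precursor (chromosome 5, 137026392 to 137033351, plus strand), was at 17.9 to 34.1 in members and 68.5 to 116 in comparison cells, log2 -1.87 ± 0.208 (1.54e-11). Chgb (0.06, adjusted p = 0.764) and Pcsk1n (0.00, 1.00) missed the threshold. Without the carriers the count of the list was again 8 of 10 lower, and after thinning 8 were again lower.

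**Figure D2:**
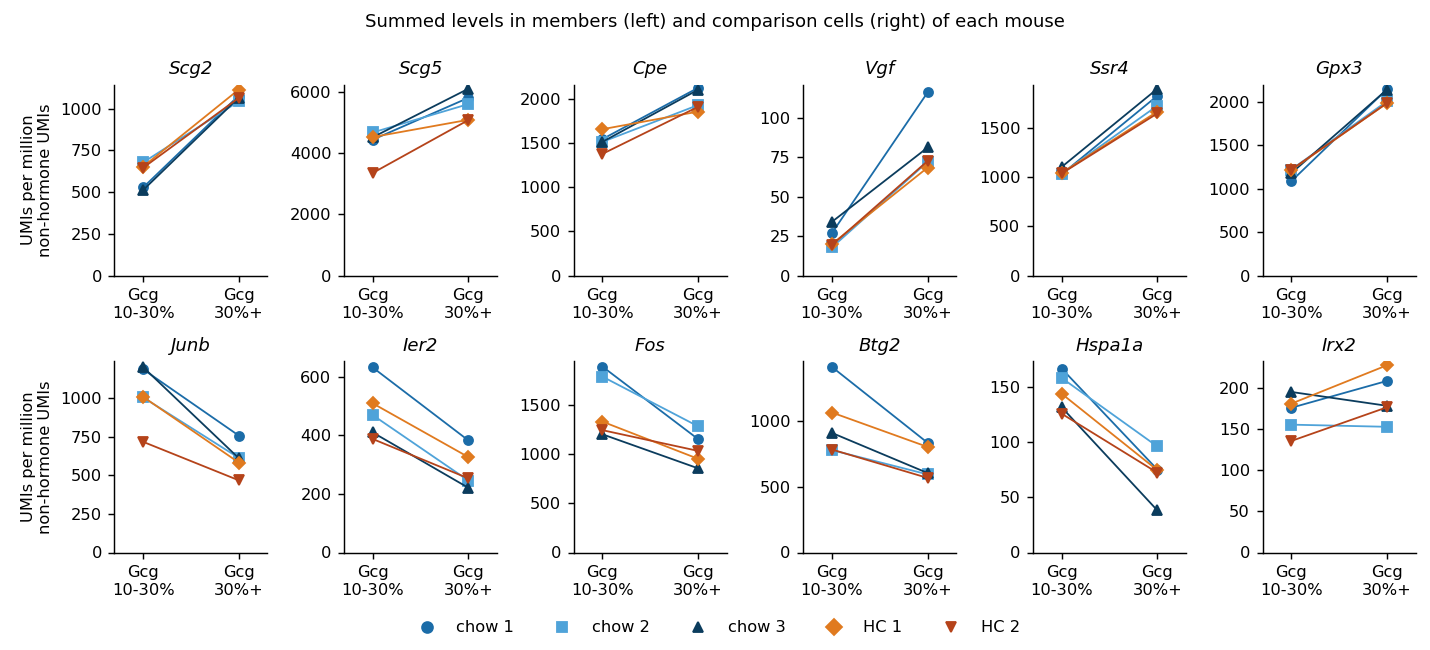
Levels of 12 genes, in CPM of non-hormone UMIs, in the summed members (left in each panel) and comparison cells (right) of each mouse; a line joins the classes of 1 mouse, and each vertical axis starts at 0. Scg2, Scg5, Cpe, Vgf, Ssr4 and Gpx3 were lower in members in 5 of 5 mice, Junb, Ier2, Fos, Btg2 and Hspa1a were higher in 5 of 5, and Irx2 was higher in 2 of 5.

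Early steps of secretion were lower in part. Ssr4, a subunit of the translocon-associated complex (chromosome X, 73787028 to 73790830, plus strand), was at 1027, 1033, 1101, 1041 and 1035 in members and 1823, 1722, 1894, 1663 and 1644 in comparison cells. The spread of Ssr4 between mice was small in both classes (1047 ± 30.5 and 1749 ± 107, SD, n = 5), and its log2 fold change was -0.79 ± 0.054 (adjusted p = 2.75e-23). Of 15 tested genes for translocation and signal peptide removal 4 were lower and none higher, with a median of -0.16. The others were the channel subunits Sec61b (-0.36, adjusted p = 2.22e-05) and Sec61g (-0.24, 0.0339) and Ssr2 (-0.25, 0.0491), and Ssr2 missed the threshold without the carriers (adjusted p = 0.211). Among 20 tested genes of the unfolded protein response and of folding in the endoplasmic reticulum, 2 were lower and none higher: Manf (-0.43, 7.11e-06) and the chaperone Hspa5 (-0.24, 0.00411). After thinning none of the 20 was called, and DESeq2 called only Manf.

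Ribosomal protein genes showed a small and even decrease. All 45 tested had a log2 fold change below 0, with a median of -0.17, and 29 passed the test. Rpl23, a protein of the large subunit, averaged 3007 ± 440 in members and 3506 ± 349 in comparison cells (SD, n = 5), log2 -0.28 ± 0.045 (adjusted p = 1.21e-06). With upper-quartile scaling the list's median was -0.21 and 32 passed; DESeq2 called 8 of them lower. Of 39 nuclear genes of the respiratory chain 7 were lower, among them Ndufa6 (-0.36, adjusted p = 0.00136) and Atp5l (-0.28, 0.00118), and DESeq2 called none of the 39. None of the 13 tested genes of the mitochondrial genome was called, and their median was 0.03. Gpx3, a secreted glutathione peroxidase, had the smallest adjusted p of the genes described here: its levels were 1086 to 1221 in members and 1985 to 2147 in comparison cells, log2 -0.85 ± 0.053 (adjusted p = 1.79e-25).

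Alpha cell markers were lower in part. Of 10 tested markers other than Gcg 4 were lower: Ttr, Gc, Etv1 and Irx1. Without the carriers 2 were called lower, after thinning 1, and without cells carrying markers of any other type 1. DESeq2 called 3 lower. Ttr was at 15140, 14200, 14390, 16220 and 16390 in members and 41270, 31720, 37720, 28830 and 28030 in comparison cells, lower in members of every mouse and without overlap. The log2 fold change of Ttr was -1.18 ± 0.15 with an adjusted p of only 0.034. It missed the threshold without the carriers (adjusted p = 0.121), after thinning (0.078) and without any of chow mouse 1, chow mouse 2, chow mouse 3 or HC mouse 1 (0.0965 to 0.142), with log2 fold changes of -1.08 without the carriers and -1.15 after thinning. Gc, which encodes the vitamin D binding protein, was at 117 to 217 in members and 236 to 324 in comparison cells (log2 -0.76 ± 0.100, 6.12e-09). The factor Etv1 had -0.37 (adjusted p = 0.000333) and Irx1 -0.33 ± 0.101 (0.039), with Irx1 at 0.186 without the carriers. Irx2 (-0.22, adjusted p = 0.311) was not called. Of 4 tested beta markers 1 was called, the factor Nkx6-1 at 1.00 (adjusted p = 0.0411), which was higher in members of 4 mice. With upper-quartile scaling no beta marker was called. The peptide gene Iapp had 0.74 (0.197), Ero1lb -0.22 (0.506) and G6pc2 -0.08 (0.962). Iapp was at -0.00 without cells carrying markers of any other type. The beta list that holds Iapp is among the lists that define those cells, so a lower value follows in part from that definition. None of 13 tested transcription factors shared by islet endocrine cells was called, with Pax6 at 0.22 (0.271) and Isl1 at -0.22 (0.184). Of the 13, 8 lay above 0 with a median of 0.06. Without the carriers 2 were called higher, and 11 lay above 0 with a median of 0.23.

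Among called genes above the level set for naming, the largest decrease was that of Dapl1, a death-associated protein-like gene (chromosome 2, 59484653 to 59505020, plus strand). It was at 27.0, 53.7, 29.2, 36.8 and 80.6 in members and 315, 365, 343, 213 and 266 in comparison cells, log2 -2.69 ± 0.191 (adjusted p = 9.98e-08), and at -2.97 without the carriers. Crem, a transcription factor of the cAMP response, was at 18.0 to 34.1 against 52.2 to 85.5 (log2 -1.39 ± 0.21, 4.64e-07). Agt, the angiotensinogen gene, had -1.19 (6.83e-07), and Slc38a4, an amino acid transporter, -0.66 ± 0.118 (2.23e-05). The rule for large changes also named Fam84a (-1.67), Zfp281 (-1.65), 5330439M10Rik (-1.58), Ttc9 (-1.32), Mir670hg (-1.27), Mettl5 (-1.26) and Ofd1 (-1.18), with adjusted p from 0.00391 to 0.0475 and a mean of 10.8 CPM or less in members. Cdkn1a, which encodes the cell cycle inhibitor p21, had -0.39 (adjusted p = 0.124) and was called without the carriers, at -0.62 (0.00138).

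Immediate early genes, whose transcription is switched on within minutes of a stimulus or of stress, were higher in members. Of 18 tested genes of this list 13 were higher, none was lower and all 18 had a log2 fold change above 0, with a median of 0.45. Junb, a subunit of the factor AP-1 (chromosome 8, 84974484 to 84978718, minus strand), was at 1185, 1003, 1199, 1007 and 716 in members and 756, 612, 610, 582 and 467 in comparison cells. Each mouse had more Junb in members, but HC mouse 2 members lay under the chow mouse 1 comparison cells. The log2 fold change of Junb was 0.69 ± 0.062 (adjusted p = 5.01e-16). Fos, its partner in AP-1, was at 1892, 1790, 1203, 1332 and 1245 against 1154, 1284, 857, 954 and 1034 (log2 0.43 ± 0.055, 2.25e-09). Ier2 had 0.70 ± 0.080 (5.01e-11), Btg2, which slows proliferation, 0.47 ± 0.062 (8.6e-09), and the phosphatase gene Dusp1 0.73 (1.12e-07). Without the carriers 10 of 18 were called higher and 14 lay above 0, after thinning these counts were 7 and 13 of 15 tested, and DESeq2 called 8. Atf3 (1.06, adjusted p = 0.012) was at 0.36 (0.748) without the carriers.

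Heat shock genes were split. The inducible Hspa1a was at 167, 158, 132, 144 and 126 in members and 75.2, 96.1, 38.2, 74.6 and 72.3 in comparison cells without overlap, log2 0.95 ± 0.133 (adjusted p = 4.43e-08). Its near-identical copy Hspa1b had 0.99 (0.00704), and reads of the pair may have been divided between them in counting. Hspb1 had 1.22 (0.000606) but 0.04 (0.988) without the carriers. The other 8 tested genes of this list, including the constitutive Hspa8 (0.02, adjusted p = 0.924), were not called. After thinning 1 of 9 tested heat shock genes was called higher, and DESeq2 called 1 of 11.

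Of 14 tested genes of the exocytosis machinery 2 were higher and none lower. These were Cadps, a priming factor of dense-core granules (0.50 ± 0.11, adjusted p = 0.00109), and Cplx2, a complexin (0.40 ± 0.106, 0.0122), and both were called again without the carriers. After thinning 1 of 13 tested genes of this list was called higher, and DESeq2 called 1 of 14. Ffar1, a receptor for long-chain fatty acids, was at 18.0 to 78.0 in members and 15.2 to 29.7 in comparison cells (log2 0.93 ± 0.243, 0.00867), and after thinning Ffar1 had 1.04 and missed the threshold (0.114). Fxyd6, listed as a marker of pancreatic polypeptide cells, had 0.67 (2.79e-05) while Pyy of the same list fell by 0.25 on the log2 scale (8.29e-06). None of 12 tested genes for ion channels and excitation was called, and none of 13 for glycolysis.

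**Figure D3:**
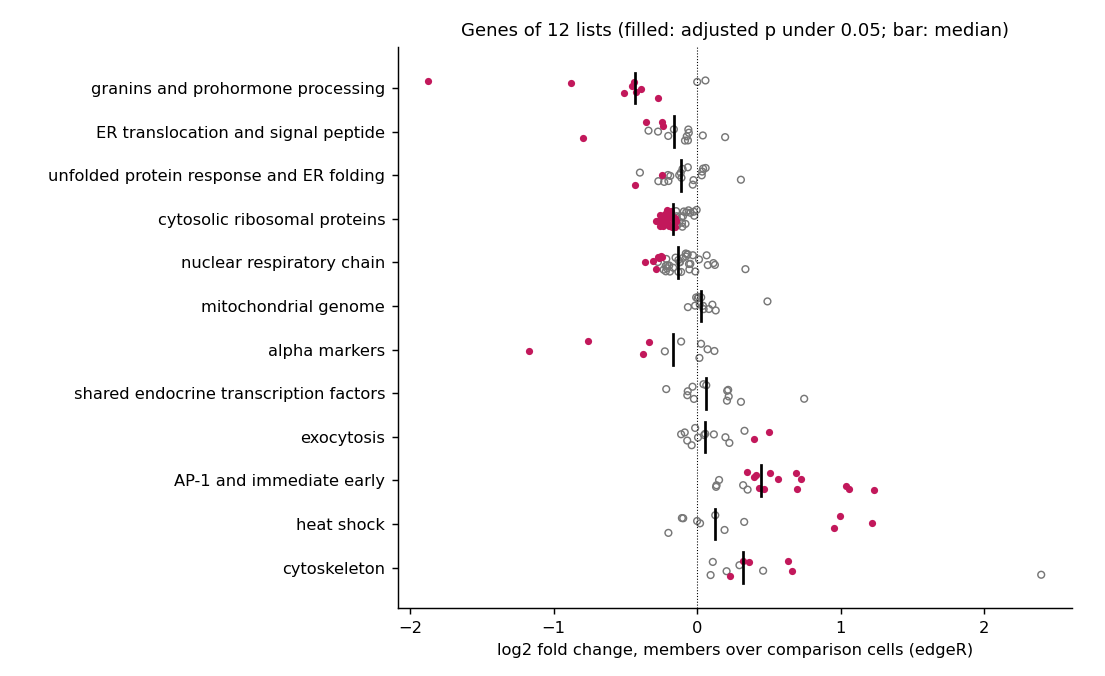
Log2 fold changes of members over comparison cells for the tested genes of 12 lists; each point is a gene, filled where its adjusted p was under 0.05, and the black bar is the list's median. Filled points of the granin, translocation and ribosomal lists lie left of 0, and those of the immediate early, heat shock and cytoskeleton lists lie right of it.

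Some of the largest increases were of genes on the lists of other cell types: Egfl7 is an endothelial, Col1a2 a stromal and Ambp a ductal marker. Of 5 tested ductal markers 1 was called higher and 2 lay above 0, with a median of -0.02. After thinning 2 were called higher and 3 lay above 0. At least 3 ductal markers were seen in 5.53% of members and 5.57% of comparison cells, and after thinning in 1.40% and 0.66%. In all, the rule for large changes named Ifitm3 (2.87), Lgals1 (2.78), Ctsh (2.31), S100a6 (2.13), Egfl7 (2.03), Id3 (1.96), Col1a2 (1.73), Timp3 (1.63), Ambp (1.53), Id2 (1.35), Slc9a3r2 (1.35) and Upk3a (1.32), with adjusted p from 3.63e-09 to 0.0248. Ifitm3, an interferon-induced gene, was at 31.5, 68.6, 166, 53.5 and 277 in members and 3.79 to 18.1 in comparison cells. HC mouse 2 had the highest member level of Ifitm3, Lgals1, Ctsh, S100a6, Egfl7, Id3, Col1a2 and Slc9a3r2. Without the carriers Ifitm3, Lgals1, Ctsh, S100a6, Egfl7, Col1a2 and Timp3 no longer had enough counts to be tested, and Slc9a3r2 was at 0.19 (0.905). Id3 (1.25, 0.00641), Ambp (1.65, 1.9e-10) and Upk3a (1.51, 2.65e-08) were still higher. C1qa, a complement gene of macrophages, had 1.06 ± 0.134 (9.25e-07) and 0.43 (0.044) without the carriers. Egfl7, Col1a2 and C1qa are on the lists that define the carriers, so lower counts of them without the carriers follow from that definition. The MHC class I and interferon list had 2 of 9 tested genes higher, Psmb9 and Bst2, and none without the carriers, where its median moved from 0.77 to 0.02. The cytoskeleton list had 5 of 11 higher and 3 without them. Actb, cytoplasmic actin, had 0.63 (0.00389). In these lists the counts moved with the carriers of other cells' markers.

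Along the glucagon share the lists changed in different places. Cells of all mice were summed in bins of Gcg share, which is a description with no test. Ttr rose from 7359 CPM at 10% to 15% Gcg, over 12620 and 16320, to 16570 at 25% to 30%, and went on to 20800, 35490 and 45160 in comparison cells with 30% to 40%, 40% to 50% and at least 50%. Granins and prohormone processing summed to 28930 to 32630 in the 4 member bins and to 32560, 35810 and 38890 in the 3 comparison bins. The mice differed in the bin of 10% to 15%, where each sum came from few cells. There were 6, 13 and 7 in chow mice 1, 2 and 3, and 6 and 9 in HC mice 1 and 2. This bin was the highest in chow mouse 1 and HC mouse 1, at 46660 and 46080, against 40390 and 38070 at 50% or more. In chow mice 2 and 3 and HC mouse 2 it stood at 25280, 24790 and 15830, against 41210, 41010 and 33410. Scg2 went from 338 at 10% to 15% Gcg to 658 at 25% to 30% and 1449 at 50% or more. Summed over mice, immediate early genes were level within the members, 7961 to 8704 in the 4 bins, and then stood at 7604, 5746 and 4617. The bin of 30% to 40% thus lay nearer to the members than to the bin of 50% or more. Single mice varied more over the 4 member bins. Chow mouse 3 stood at 9683, 5833, 6798 and 7938, and chow mouse 2 at 7604, 9993, 8623 and 8299. Ribosomal proteins went from 102900 in the lowest member bin to 113000 in the highest and 120200 at 50% or more. In chow mouse 3 these bins stood at 122500, 120100 and 123900, while the other mice rose over them. Macrophage markers stood at 6442, 2134, 3634 and 1438 in the 4 member bins, in order of rising Gcg share, and at 358, 115 and 93.2 in the 3 comparison bins. Carriers made up 24.4%, 5.71%, 9.66% and 7.04% of the member bins, the first of which held 41 cells, and 0.329% of the cells with 50% or more. When only the 256 members with under 25% Gcg were compared, 66 genes were higher and 80 lower. Of the 311 original calls still tested 131 were called again. All 311 kept their sign, but these members and the comparison cells also entered the original test, so this is not a separate check.

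**Figure D4:**
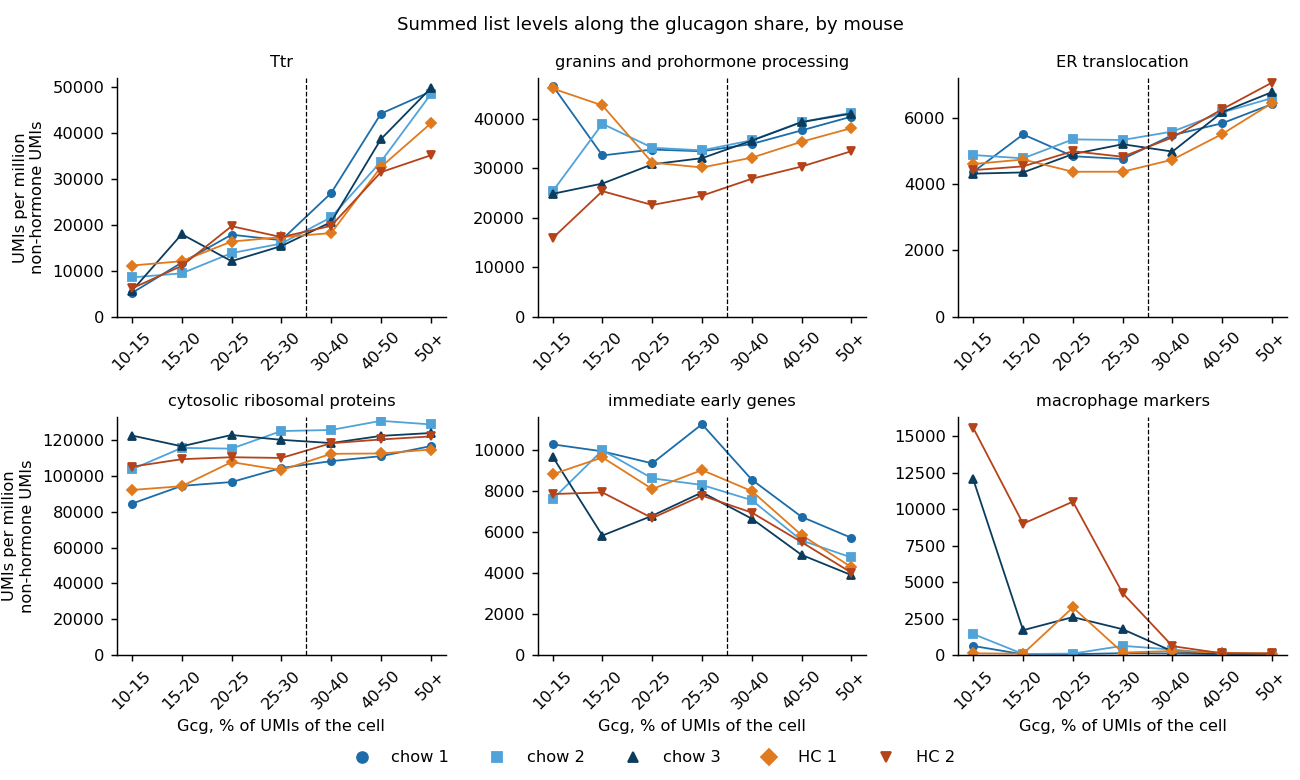
Summed level of Ttr and of 5 gene lists, in CPM of non-hormone UMIs, in cells binned by Gcg share (horizontal), with 1 line per mouse; the dashed line marks the 30% limit between members and comparison cells. In every mouse Ttr is lowest in the leftmost bin and highest in the rightmost, immediate early genes fall over the 3 bins beyond the limit, and macrophage markers are high in members of HC mouse 2 and in the lowest bin of chow mouse 3. The leftmost bin held only 6 to 13 cells per mouse.

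A pair of RNA measures differed slightly. At 1000 non-hormone UMIs a member showed a median of 646 ± 10.4 detected genes and a comparison cell 625 ± 8.91 (SD over mouse medians, n = 5). The median was higher in members in 5 of 5 mice, by 34, 28 and 18 genes in the chow and 20 and 6.5 in the HC animals (two-sided exact sign-flip permutation p = 0.062, the smallest that 5 pairs allow). Mitochondrial transcripts were 4.70% ± 0.866 of non-hormone UMIs in members and 4.53% ± 0.892 in comparison cells (SD, n = 5), higher in members in 5 of 5 mice by 0.0998 to 0.230 percentage points (exact sign-flip permutation p = 0.062). Without cells carrying markers of any other type the mitochondrial share was higher in members in 3 of 5 mice, with -0.342 points in chow mouse 1 and -0.0095 in HC mouse 1 (mean difference 0.164, exact sign-flip permutation p = 0.5). Whether RNA quality bears on the gene differences above was not tested.

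The diet comparison first asked whether members were more or less frequent. Of members and comparison cells together, members made up 11.6%, 17.0% and 13.1% in chow mice 1, 2 and 3 and 10.8% and 11.9% in HC mice 1 and 2. The 95% Clopper-Pearson intervals, which cover counting error only, were 9.43% to 14.2%, 14.5% to 19.7%, 10.8% to 15.7%, 9.14% to 12.6% and 10.0% to 14.1%. The mean was 11.4% ± 0.806 over the HC mice (SD, n = 2), and over the chow mice it was 13.9% ± 2.76 (SD, n = 3), a difference of -2.57 points that was within the spread of the chow mice (two-sided exact permutation p = 0.4, where 10 splits allow no p below 0.1). Within the FUN libraries the difference was -0.863 points and within the SKY libraries -3.14. Of all kept cells members made up 2.85% ± 0.052 with HC and 2.45% ± 0.347 with chow (exact permutation p = 0.3). The latter difference of 0.393 points was 0.504 within FUN and 0.320 within SKY. With members that carried markers of any other type left out and all kept cells kept as the denominator, it was 0.260 (exact permutation p = 0.5).

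No gene passed the test between HC and chow mice within the members. Of 5281 genes tested by edgeR 0 were called (0.0%), and 196 had an unadjusted p under 0.05. DESeq2 also called 0, where 33 genes had an unadjusted p under 0.05. In simulated counts of this size the test recovered 14.9% of 2-fold and 86% of 4-fold changes, so changes of 2-fold would mostly go unseen. The count rose to 37 with the library prefix as a term, 90 with age as a term and 64 without HC mouse 1, where HC mouse 2, with the most carriers, was the only HC sum. The genes of smallest p are given as values. Crebrf, a regulator of the CREB3 factors, was at 40.6, 47.8 and 48.7 in chow mice 1, 2 and 3 and at 147 and 67.7 in HC mice 1 and 2 (log2 1.22 ± 0.335, adjusted p = 0.965). Cap1, an actin-binding protein, was at 45.1, 59.7 and 53.6 against 110 and 103 (1.00 ± 0.305, 0.997), and Tmed7, of transport from the endoplasmic reticulum, at 58.5 to 67.6 against 127 and 110 (0.92, 0.997). Ormdl3, which restrains sphingolipid synthesis, was at 108, 77.6 and 78.0 against 33.5 and 35.5 (-1.31 ± 0.356, 0.965). Lower values were also seen for Serpine2 (-1.53), Mrln (-0.96), Pde10a (-1.01) and Tmsb15b1 (-0.76), and none of these passed (adjusted p 0.965 to 0.997).

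Some diet values moved with the carriers. Ftl1, the ferritin light chain, was at 1514, 1385 and 1613 with chow and at 1874 and 3447 with HC, log2 0.85 (adjusted p = 0.965), and at 0.19 without the carriers. Hexa, a lysosomal enzyme gene, had 0.78 (0.997) and 0.47 without them. The 8 tested macrophage markers all had a log2 fold change above 0 between HC and chow, median 2.48; HC mouse 2 held the most of these markers, as given above, and carriers are in part defined by them. Of the other lists, 11 of 12 tested genes of the mitochondrial genome lay above 0 with a median of 0.38, and 12 of 12 without the carriers with 0.41, where no gene was called. That list summed to 47400, 38520 and 47850 CPM in members of chow mice 1, 2 and 3 and to 63680 and 49840 in those of HC mice 1 and 2. It summed to 44640, 36090, 45040, 62360 and 47340 in comparison cells, and HC mouse 1 was the highest in both classes. Cdkn1a was at 185, 95.5 and 82.8 with chow and 43.5 and 80.6 with HC (-0.91 ± 0.349, 0.997). The alpha markers Irx1 (-0.16) and Irx2 (-0.13) had adjusted p of 0.997.

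The difference of the diet effect between members and comparison cells was tested directly. Of 8304 genes 4 passed (0.0482%), and 392 had an unadjusted p under 0.05. DESeq2 called none of the 8304, and gave 38 of them an unadjusted p under 0.05. Ttr was among the 4: its log2 difference between diets was 0.16 in members, where HC mice were the higher, and -0.38 in comparison cells, where they were the lower. Members stood at 15140, 14200 and 14390 with chow and at 16220 and 16390 with HC. Comparison cells stood at 41270, 31720 and 37720 with chow and at 28830 and 28030 with HC. The difference of these differences was 0.58 ± 0.080 (adjusted p = 8.04e-06), and 0.73 (1.01e-08) without the carriers. Ttr rose with the Gcg share, as given above, and that share differed between mice. Its median in comparison cells was 46.0%, 42.5% and 45.7% in chow mice 1, 2 and 3 and 42.3% and 42.2% in HC mice 1 and 2. In members it was 25.2%, 25.3%, 26.0%, 26.1% and 26.1% in that order. Whether the Gcg share bears on the diet values of Ttr was not tested. The other 3 genes, Try5, Ctrc and Sycn, encode digestive enzymes or granule proteins of acinar cells; Ctrc and Sycn were high in members of chow mouse 1, and Try5 in those of chow mice 1 and 3. Leaving out HC mouse 1 raised the number of calls from 4 to 29, and leaving out chow mouse 1 lowered it to 2. The test recovered 2.04% of 2-fold and 31.6% of 4-fold differences in simulated counts. Their spread was set above that fitted for the class comparison, so these shares may be too low.

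**Figure D5:**
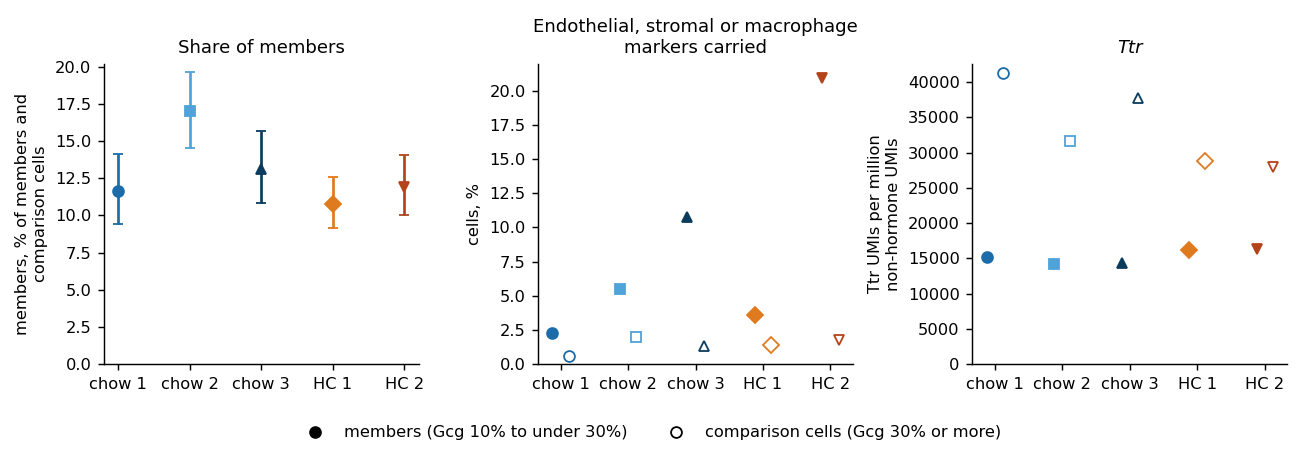
Per mouse, left: members as a percent of members and comparison cells, with 95% Clopper-Pearson intervals; middle: percent of cells carrying at least 3 endothelial, stromal or macrophage markers; right: Ttr in CPM of non-hormone UMIs, with members filled and comparison cells open. The share of members was 10.8% to 17.0%, carriers reached 21.0% in members of HC mouse 2, and Ttr was lower in members in 5 of 5 mice.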

How the data were processed

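Raw UMI counts per gene and barcode were used as the authors deposited them, 32285 genes in each of 5 matrices; per the submitters' processing notes they came from Cell Ranger 4.0.0 with mm10, and the annotation release is not given in the sources used here. Symbols were found for 32158 gene IDs. The members and gene lists were chosen with earlier results of these data known. Counts were summed per mouse and class without the 5 hormone genes and fitted in R 4.3.3 with edgeR 4.0.16 (TMM, filterByExpr, robust quasi-likelihood test, two-sided); DESeq2 1.42.0 was an alternative. Member sums held 205235 to 335106 non-hormone UMIs and comparison sums 1415108 to 2626220. Named genes were the 12 largest called changes in each direction with mean log2 CPM of at least 4 and 1 direction in 5 of 5 mice, the 5 smallest p in each direction for diet, the 5 smallest p for the diet difference, the 2 to 4 smallest p of each list, and markers; others were named after their values were seen. On data simulated with the means and library sizes of these sums, 53.2% of 2-fold and 97.9% of 4-fold changes between the classes were recovered, with 11 false of 155 calls. The simulated spread between sums was fixed for all genes. It lay above the fitted common spread, a biological coefficient of variation of 0.0934 for the classes and 0.207 for diet. The recovered shares may therefore be too low, chiefly for the classes. Libraries shared 4 to 14 barcodes a pair and no member; the closest member sums had a chi-square of 2.76 per degree of freedom. Nothing links the replicate numbers across diets. Coordinates came from the GENCODE annotation of GRCm38. Alternatives are given at the end.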

Additional observations from a re-analysis of the deposited data

Results flagged for a closer look

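For 4 genes the test of the difference itself, by edgeR's quasi-likelihood test of the class by diet term, found that the diet effect differed between members and comparison cells. Ttr had a log2 difference of 0.58 (adjusted p = 8.04e-06), and the adjusted p was 0.000231 without HC mouse 1, 0.0362 without HC mouse 2, 0.00106 without cells that carried markers of any other type and 1 by DESeq2 on the same sums. With HC mouse 2 grouped by its title as chow, Ttr had 0.36 (1.0). Try5, a trypsin gene, had -2.78 (8.87e-06): it was at 766, 17.9 and 989 CPM of non-hormone UMIs in members of chow mice 1, 2 and 3 and at 26.8 and 29.0 in those of HC mice 1 and 2, against 107, 10.5, 150, 26.3 and 37.5 in comparison cells. Ctrc, a chymotrypsin gene, had -2.73 (0.037), with 257 in members of chow mouse 1 and 3.23 to 23.4 in those of the other 4 mice. Sycn, a zymogen granule gene, had -2.77 (0.037), with 234 in members of chow mouse 1 and 5.97 to 16.7 in the others. The acinar list was carried by 24 of 87 members of chow mouse 1 (27.6%) and by 158 of its 660 comparison cells (23.9%).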

How the results depend on the processing

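The alternatives without carriers of endothelial, stromal or macrophage markers, with members under 25% Gcg and with all kept cells as the denominator were chosen after seeing the data. The counts of genes higher and lower in members (134 and 190) became 38 and 62 by DESeq2, 317 and 415 with no filter on low counts, 37 and 38 without the mouse block, 42 and 89 after thinning, and 66 and 80 with members under 25% Gcg. Without cells carrying markers of any other type 53 were higher and 142 lower. Of the 324 calls DESeq2 kept 85 and the fit without the mouse block 75, all 324 with the same sign. Leaving out 1 mouse gave 105 to 127 higher and 147 to 175 lower. The diet comparison, with 0 calls, had 8 with no filter on low counts, 7 with mice grouped by title, 37 with the name prefix and 90 with age as a term, and 0 to 64 without 1 mouse: 64 when HC mouse 1 was out, 5 when chow mouse 2 was and 3 when HC mouse 2 was, where a lone HC mouse is assumed to vary like the chow mice. The diet difference, with 4 calls, had 0 by DESeq2, 9 with no filter on low counts, 1 without cells carrying markers of any other type, 1 by title, 12 without the carriers, and 2 to 29 without 1 mouse: 2, 12 and 15 with chow mice 1, 2 and 3 out in turn, 29 with HC mouse 1 out and 3 with HC mouse 2 out. The diet difference in the share of kept cells was -0.783 when cells carrying markers of any other type, beta markers included, were taken from members and from kept cells alike, and 0.260 with all kept cells as the denominator, and the excess of detected genes was 10.4 at 500 non-hormone UMIs. Of the calls still tested 280 of 288 had the same sign without cells carrying markers of any other type and 298 of 304 without the carriers. Among named genes signs turned for Psmb9 (-0.21) and Pfn1 (-0.039) without cells carrying markers of any other type, and for Bst2 there (-0.26) and without the carriers (-0.10). Fewer samples, cells or tested genes enter some of these fits; otherwise the cause was not tested.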
